A study of Mus musculus with 10 samples.

Results

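The genes described here encode RNA-binding proteins of messenger RNA splicing and handling: the SR proteins (Srsf), the heterogeneous nuclear ribonucleoproteins or hnRNPs (Hnrnp, Hnrp), the numbered RNA-binding motif proteins (Rbm), the subunits of splicing factors 3a and 3b (Sf3a, Sf3b) and Cirbp, the cold-inducible RNA-binding protein. They were taken from the count table by symbol and not by measured value, though the set was chosen with earlier results of these data known. In all 76 of 23284 genes matched: 11 SR genes, 20 hnRNP genes, 36 RBM genes, 8 SF3 genes and Cirbp. A symbol does not make a splicing factor, and several RBM genes encode proteins known for other work. Among these are Rbm7 (nuclear RNA decay), Rbm8a (the exon junction complex), Rbm15 and Rbm15b (adenosine methylation), Rbm47 (RNA editing) and Rbm19 and Rbm28 (ribosome assembly). The set is therefore called the SR, hnRNP, RBM and SF3 genes below.

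Splicing removes introns from the primary transcript, in a large particle that assembles anew on each intron. SR proteins bind exon sequences and recruit that particle, while hnRNPs often oppose them or coat the transcript. The SF3a and SF3b subunits belong to the U2 particle, which settles on the branch point near the end of the intron. Many of these genes also hold exons that turn their own transcripts over to decay, so a level of messenger RNA need not follow the level of protein. In macrophages, Toll-like receptor 4 ligands switch on very many transcripts that pass through this machinery.

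The cells were macrophages of C57BL/6J mice, grown from bone marrow over 6 days in macrophage colony-stimulating factor (M-CSF). They were not treated, or were given Kdo2-lipid A, the minimal active part of lipopolysaccharide, at 0.03 nM or 10 nM and harvested after 1 h or 2 h. That makes 5 groups of 2 libraries of polyadenylated RNA, with 1 library of each group from each of 2 experiments, described by the labels as independent. Untreated cells were taken at 0 h only, so time in culture and treatment cannot be told apart in comparisons with them, and all 4 such comparisons share those 2 libraries. The labels do not say how many animals gave marrow, and p-values here measure the spread between these libraries only.

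Levels are CPM, the counts of a gene per 1e+06 counts, scaled with TMM factors (edgeR's trimmed mean of M values), with experiment 1 before experiment 2 in each pair of values. Differences are log2 ± standard error, and a gene was called where edgeR's quasi-likelihood test gave an adjusted p (Benjamini-Hochberg) below 0.05 over all 12918 genes tested. Library totals ran from 33179599 to 42167096 counts, and 3 counts, the floor of detection, were worth 0.0711 to 0.0904 CPM before scaling. Macrophage markers were present in 12 of 12 cases, with a summed level of 24996 to 33975 CPM, whereas erythroid markers summed to at most 0.657 CPM. The stromal and endothelial markers summed to 48.9 to 85.1 CPM untreated and to 211 to 261 CPM at 10 nM 2 h; of these 12 markers Vcam1 alone ran from 1.81 to 145 CPM over the libraries. Their part in the results was not tested. Bulk libraries cannot tell fewer cells of a type from less RNA per cell. As a check of the response, Tnf rose 206-fold, Cxcl2 618-fold and Nfkbia 25.3-fold at 10 nM 2 h.

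The choice of scaling decides the sign of many of these differences at 10 nM. At that dose inducible genes filled the libraries. The 1688 genes raised at least 2-fold at 10 nM 2 h took 10.1% and 10.7% of counts in untreated cells, 26.5% and 26.8% at 10 nM 1 h and 33.2% and 34.3% at 10 nM 2 h. TMM places the bulk of genes near no change, whereas plain library totals keep each gene's share of all counts. Statements below that some libraries or groups lay above or below others in CPM are made on the TMM scale. They need not hold with totals. Going from TMM to totals moved the median of all genes by -0.37 at 10 nM 1 h and by -0.56 at 10 nM 2 h, but by -0.0092 and -0.068 at 0.03 nM. At 10 nM 2 h the median of the 71 tested members was 0.37 against -0.030 for all genes with TMM, and -0.18 against -0.59 with totals. The change of scaling shifts all genes nearly alike, so the place of the members relative to all genes is the same by construction; 59 of 71 members lay above the all-gene median. Below, "rose" and "fell" are used of members called in the same direction under both scalings. Where a difference called with TMM alone is described, both values are printed. Not every such call is described: at 10 nM 1 h, 28 members were called higher with TMM and 7 under both scalings.

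**Figure D1:**
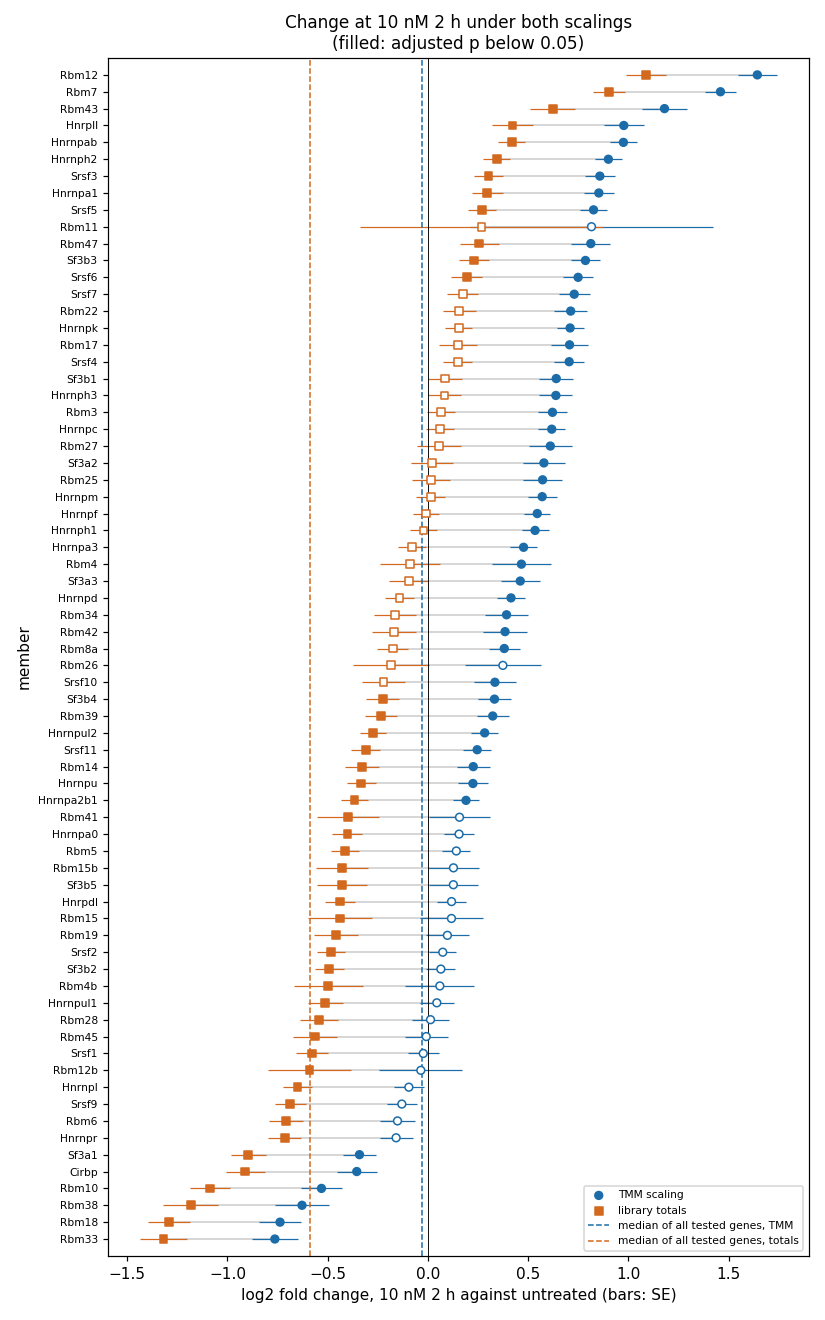
Log2 difference (x axis) at 10 nM 2 h against untreated cells for 70 of the 71 tested members (y axis; Rbm44, near the detection floor, is left out), with TMM (circles) and with library totals (squares); bars are standard errors, filled symbols are called, and dashed lines are the medians of all tested genes. Of the 42 members called higher with TMM, 12 are called higher with totals too and 7 are called lower there.

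Transcripts of this set were abundant before treatment. Per kilobase of exon, Srsf5 stood highest at 204 CPM per kilobase in untreated cells, followed by Hnrnpk at 193 and Hnrnpa2b1 at 158. On this scale, among tested members, SR genes ran down to 13.4 (Srsf10), hnRNP genes to 9.62 (Hnrnph3) and SF3 genes from 68.6 (Sf3b2) to 10.6 (Sf3a1). Tested RBM genes spread most widely, from 86.98 (Rbm39) to 0.0561 (Rbm44). Rbm44, known from germ cells, gave 0.143 and 0.289 CPM untreated, 0.164 to 0.575 at 0.03 nM, 0.116 and 0.159 at 10 nM 1 h and 0.0657 and 0 at 10 nM 2 h. That is close to the floor throughout, and no comparison called it with TMM. Rbm20 and Rbm24, which act in muscle, reached at most 6 and 4 counts in a library. Srsf12, Rbm46 and Rbm31y had 0 counts in all 10 libraries. These 5 members fell below the filter on low counts, which left 71 members to test: 10 SR, 20 hnRNP, 32 RBM, 8 SF3 and Cirbp.

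At 0.03 nM for 1 h, 1 of 71 members changed, and it was Cirbp, upward; 1.53% of all genes were called in this comparison. Among all genes tested, 1.42% were called higher and 0.108% lower with TMM, 1.36% and 0.116% with totals, and 1.36% and 0.108% under both. At 0.03 nM for 2 h, 6 of 71 members were called higher and 0 lower, where 9.82% of all genes were called in either direction. With totals 3 stayed called higher (Cirbp, Srsf3 and Rbm12) and 1 was called lower (Rbm33). Over the whole table, 6.45% were called higher and 3.37% lower with TMM, 5.30% and 5.64% with totals, and 5.30% and 3.37% under both. At 10 nM for 1 h, 28 members were called higher and 4 lower with TMM, where 36.9% of all genes were called. With totals the split was 7 higher and 33 lower. Of all genes, 18.5% were called higher and 18.3% lower with TMM, 9.91% and 52.3% with totals, and 9.90% and 18.3% under both. At 10 nM for 2 h it was 42 higher and 6 lower with TMM, where 58.7% of all genes were called, and 12 higher and 34 lower with totals. Called in the same direction under both scalings were 7 up and 4 down at 1 h, then 12 up and 6 down at 2 h. Of the 42 members called higher with TMM at 10 nM 2 h, 7 were called lower with totals: 1 SR, 3 hnRNP, 2 RBM and 1 SF3 gene. Of the 23 not called with TMM there, 21 were called lower with totals. Below, a negative value with totals may thus be a call even where none is stated. Among all genes tested, 28.6% were called higher and 30.1% lower with TMM, 14.7% and 61.1% with totals, and 14.7% and 30.1% under both at 10 nM 2 h. Unadjusted p fell below 0.05 for 3, 16, 38 and 49 members in these 4 comparisons, and DESeq2 called 1, 8, 33 and 48. No share of all genes is given for unadjusted p, for DESeq2 or for fits with a library left out. Such member counts, here and below, therefore cannot be set against the whole table.

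The low-dose counts rest on single libraries. The count of 1 at 0.03 nM 1 h became 0 without any 1 library other than those at 0.03 nM 2 h. The 6 members called at 0.03 nM 2 h became 18 without the experiment 1 library of that group and 7 without its experiment 2 library. They became 1 without either untreated library, and 3 without any 1 of the libraries at 0.03 nM 1 h or at 10 nM. Fitted with the compared groups alone, 1 was called. At 0.03 nM 2 h the difference between the 2 libraries (experiment 2 minus experiment 1) ran with exonic length across members at Spearman rho = -0.57, against -0.039 to 0.18 in the other groups, and across all genes at -0.48. These are descriptions across genes of the same libraries, and their part in the low-dose results was not tested.

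**Figure D2:**
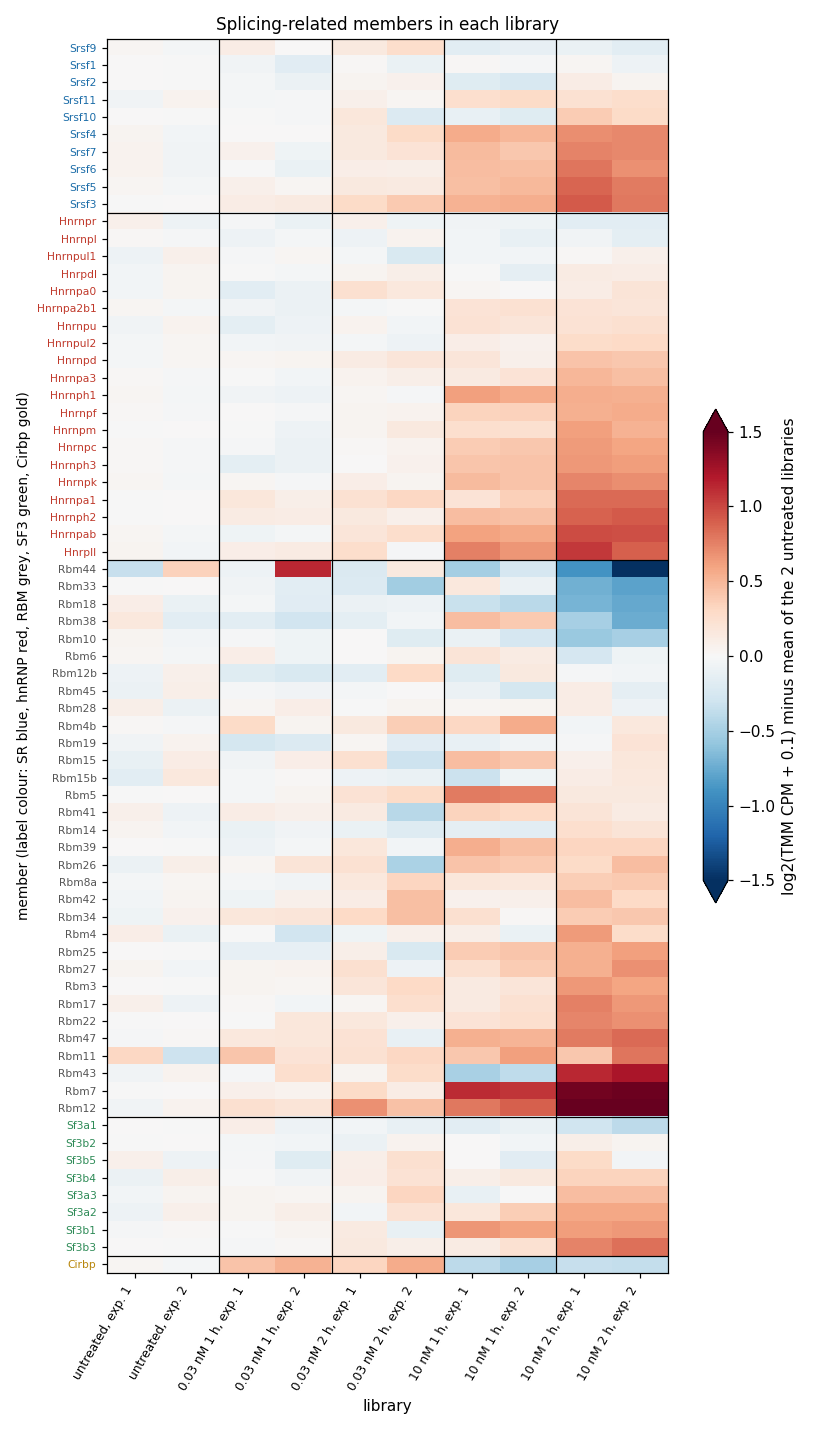
Level of each of the 71 tested members (rows, label colour by family) in each of the 10 libraries (columns), as log2(TMM CPM + 0.1) minus the mean of the 2 untreated libraries; red is higher and blue is lower. Most change sits in the 4 libraries at 10 nM, where the predominance of red holds on this TMM scale only (42 up and 6 down at 2 h; 12 up and 34 down with library totals).

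Cirbp and Rbm3 are a pair of related proteins whose transcripts accumulate when cells are cooled, and here they parted. Cirbp (mm9 chr10:79630586-79634398, plus strand) measured 27.8 and 26.5 CPM untreated, 36.7 and 38.9 at 0.03 nM 1 h, 33.8 and 40.01 at 0.03 nM 2 h, 20.7 and 19.3 at 10 nM 1 h and 21.4 and 21.1 at 10 nM 2 h. Both low-dose groups lay wholly above the untreated pair, and both high-dose groups wholly below it. Against untreated cells the log2 difference was 0.48 ± 0.096 (adjusted p = 0.0307) at 0.03 nM 1 h and 0.44 ± 0.096 (adjusted p = 0.0116) at 0.03 nM 2 h. At 10 nM it was -0.44 ± 0.098 (adjusted p = 0.00382) at 1 h and -0.35 ± 0.099 (adjusted p = 0.00852) at 2 h. With totals these 4 values were 0.47, 0.38, -0.81 and -0.91, all called. The difference between doses takes in no untreated library, though the shared fit does. Cirbp was 1.89-fold lower at 10 nM than at 0.03 nM after 1 h (adjusted p = 1.54e-05) and 1.74-fold lower after 2 h (adjusted p = 2.88e-05). These dose differences kept their call without any 1 library. The low-dose call at 1 h was lost without either library of untreated cells, either library at 0.03 nM 1 h, either library at 10 nM 1 h or either library at 10 nM 2 h (log2 0.43 to 0.52, adjusted p = 0.0635 to 0.346). The call at 0.03 nM 2 h was lost without either library of untreated cells (log2 0.41 to 0.48, adjusted p = 0.0663 to 0.12), and the call at 10 nM 2 h was lost without the experiment 1 library of untreated cells (log2 -0.32, adjusted p = 0.057).

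Rbm3 gave 188 and 188 CPM untreated, 192 to 231 at 0.03 nM, 207 and 213 at 10 nM 1 h and 296 and 283 at 10 nM 2 h. Its highest pair was at 10 nM 2 h, apart from every other library, and there the difference from untreated cells was 0.62 ± 0.071 (adjusted p = 1.11e-05) with TMM and 0.066 with totals. From 1 h to 2 h at 10 nM it rose by 0.46 ± 0.071 (adjusted p = 0.000255), or by 0.27 with totals. The ratio of Cirbp to Rbm3 counts within a library needs no scaling: it was 0.147 and 0.141 in untreated cells, 0.189 and 0.203 at 0.03 nM 1 h and 0.158 and 0.173 at 0.03 nM 2 h. It then stood at 0.1003 and 0.0903 at 10 nM 1 h and 0.0722 and 0.0746 at 10 nM 2 h. Its 5 groups did not overlap one another. Rbm3 shares 94 exonic bases with 2900002K06Rik on the opposite strand.

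The promoter stretch of Cirbp is shown because it carries the CCAAT box in both orientations, in capitals (CCAAT on the printed strand and its complement ATTGG). The sequence is RefSeq's for GRCm38.p6, chr10:80167589-80167777, plus strand, from 250 to 62 bases before the annotated start, and all positions of promoters below are on that build.
Cirbp: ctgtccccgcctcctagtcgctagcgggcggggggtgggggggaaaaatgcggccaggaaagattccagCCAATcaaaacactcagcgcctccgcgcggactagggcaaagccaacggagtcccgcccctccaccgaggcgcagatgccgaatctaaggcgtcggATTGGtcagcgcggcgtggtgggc
A CCAAT box in either orientation lay within 250 bases before the start in 31 of the 61 tested members found in the promoter table, 50.8%. It lay in 37.5% of all 27025 genes there, tested or not. Among members with a promoter it lay in 6 of the 11 that rose under both scalings at 10 nM 2 h. Of the 6 that fell, 1 held it, and that was Cirbp. A match of letters says nothing of whether the box is bound.

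Among SR genes, 7 of 10 were called higher and 0 lower with TMM at 10 nM 2 h, where 28.6% and 30.1% of all genes were. With totals 3 were called higher and 4 lower, against 14.7% and 61.1% of all genes. The 3 that rose under both were Srsf5, Srsf3 and Srsf6. Srsf5 (mm9 chr12:82046491-82051494, plus strand) measured 343 and 330.4 CPM untreated, 343 to 371 at 0.03 nM, 461 and 469.9 at 10 nM 1 h and 614 and 579 at 10 nM 2 h. Every library at 10 nM lay above every other library, with the 2 h pair highest. It rose 1.77-fold at 10 nM 2 h, a log2 difference of 0.83 ± 0.068 (adjusted p = 6.97e-07), and of 0.27 with totals. Srsf3 (mm9 chr17:29169605-29180317, plus strand), the smallest SR protein, gave 141 and 142 CPM untreated, 153 and 154 at 0.03 nM 1 h, 173 and 185 at 0.03 nM 2 h, 203 and 207 at 10 nM 1 h and 267 and 245 at 10 nM 2 h. Its groups followed one another in that order without overlap. It rose by 0.34 ± 0.073 (adjusted p = 0.0104) at 0.03 nM 2 h and by 0.86 ± 0.073 (adjusted p = 9.27e-07) at 10 nM 2 h, or by 0.27 and 0.30 with totals. The low-dose call was lost without either library of untreated cells (log2 0.34 to 0.35, adjusted p = 0.0892 to 0.102). Srsf6 (mm9 chr2:162757244-162762856, plus strand) gave 133 and 123 CPM untreated, 119 to 137 at 0.03 nM, 176 and 174 at 10 nM 1 h and 224 and 206 at 10 nM 2 h, again with all 4 libraries at 10 nM above the rest. Its rise at 10 nM 2 h was 0.75 ± 0.077 (adjusted p = 4.35e-06), or 0.19 with totals.

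Srsf7 and Srsf4 came close to these without passing under both scalings. Srsf7 measured 71.8 and 66.99 CPM untreated, 66.1 to 79.9 at 0.03 nM, 96.5 and 91.9 at 10 nM 1 h and 116 and 114 at 10 nM 2 h, a difference at 2 h of 0.73 ± 0.077 (adjusted p = 5.83e-06) with TMM and 0.17 with totals. Srsf4 measured 58.6 and 55.8 CPM untreated, 57.2 to 69.95 at 0.03 nM, 84.1 and 81.1 at 10 nM 1 h and 92.5 and 93.9 at 10 nM 2 h, a difference of 0.70 ± 0.075 (adjusted p = 6.46e-06) with TMM and 0.15 with totals. Srsf10, which turns from an activator into a repressor of splicing when it loses its phosphates in heat shock, gave 73.8 and 73.2 CPM untreated, 63.6 to 82.7 at 0.03 nM, 68.3 and 64.9 at 10 nM 1 h and 95.3 and 89.9 at 10 nM 2 h. Its 10 nM 1 h pair was among the lowest and its 2 h pair was the highest, so that the difference from untreated cells was 0.33 ± 0.11 (adjusted p = 0.0167) with TMM and -0.22 with totals, while 2 h exceeded 1 h by 0.48 ± 0.11 (adjusted p = 0.00336) and by 0.29 with totals, both called. The Srsf10 call against untreated cells was lost without either library of untreated cells or the experiment 1 library at 10 nM 2 h (log2 0.29 to 0.34, adjusted p = 0.0676 to 0.101). Srsf11 measured 98.04 and 106 CPM untreated, 99.8 to 108 at 0.03 nM, 121 and 124 at 10 nM 1 h and 119 and 123 at 10 nM 2 h and changed sign with the scaling, 0.25 ± 0.071 (adjusted p = 0.0105) with TMM and -0.31 with totals. That TMM call was lost without the experiment 1 library of untreated cells or the experiment 2 library at 10 nM 2 h (log2 0.19 to 0.22, adjusted p = 0.0691 to 0.116).

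Srsf1, the founding member of the SR family, gave 160.1 and 159.9 CPM untreated, 142 to 162 at 0.03 nM, 162 and 159 at 10 nM 1 h and 163 and 152 at 10 nM 2 h. All 10 libraries thus lay between 142 and 163 CPM. No comparison called it with TMM. Its difference at 10 nM 2 h was -0.023 ± 0.077 (adjusted p = 0.822) with TMM and -0.58 with totals, where it was called lower. Srsf2, known as the mark of nuclear speckles, gave 193 and 193 CPM untreated, 182 to 202 at 0.03 nM, 169.8 and 164 at 10 nM 1 h and 208 and 199 at 10 nM 2 h. It fell at 10 nM 1 h, where both libraries were below all others, with a difference of -0.21 ± 0.068 (adjusted p = 0.0284), or -0.58 with totals. At 2 h the TMM difference was 0.074 and was not called, while with totals Srsf2 was called lower. The TMM call at 1 h was lost without either library of untreated cells or either library at 10 nM 1 h (log2 -0.19 to -0.24, adjusted p = 0.086 to 0.18). Srsf9 measured 65.2 and 62.9 CPM untreated, 64.2 to 76.8 at 0.03 nM, 57.3 and 59.00 at 10 nM 1 h and 59.6 and 57.5 at 10 nM 2 h, and was lower at 10 nM than at 0.03 nM after 2 h by -0.34 ± 0.076 (adjusted p = 0.00252), with -0.82 by totals. Within a library, counts of Srsf3 per count of Srsf1 went from 0.878 and 0.887 untreated to 0.988 and 1.09 and 1.07 and 1.24 at 0.03 nM after 1 h and 2 h. The ratio reached 1.25 and 1.303 at 10 nM 1 h and 1.63 and 1.61 at 10 nM 2 h. Srsf5 per Srsf2 was 1.77 and 1.71 untreated, 1.83 to 1.88 at 0.03 nM, 2.71 and 2.87 at 10 nM 1 h and 2.95 and 2.91 at 10 nM 2 h. These pairs, and the other ratios below, were chosen after the values were seen.

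Of 20 hnRNP genes, 15 were called higher and 0 lower with TMM at 10 nM 2 h, where 28.6% and 30.1% of all genes were. With totals 4 were called higher and 8 lower, against 14.7% and 61.1% of all genes. The 4 that rose under both scalings were Hnrnpab, Hnrpll, Hnrnph2 and Hnrnpa1. Hnrnpab (mm9 chr11:51413602-51420383, minus strand) encodes a relative of the A and B proteins and gave 211 and 201 CPM untreated, 197 and 201 at 0.03 nM 1 h, 233 and 246 at 0.03 nM 2 h, 312 and 304 at 10 nM 1 h and 407 and 402 at 10 nM 2 h. The 10 nM pairs lay above all others. It rose 1.97-fold at 10 nM 2 h, 0.98 ± 0.069 (adjusted p = 1.70e-07), with 0.42 by totals. At 10 nM 1 h the rise was 0.58 ± 0.069 (adjusted p = 3.17e-05), with 0.22 by totals. From 1 h to 2 h at 0.03 nM the TMM difference was 0.27 ± 0.069 (adjusted p = 0.0456), not called with totals (0.21). That call was lost without either library of untreated cells, either library at 0.03 nM 1 h, the experiment 2 library at 0.03 nM 2 h, either library at 10 nM 1 h or either library at 10 nM 2 h (log2 0.24 to 0.29, adjusted p = 0.0553 to 0.263).

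Hnrpll (mm9 chr17:80428827-80461674, minus strand), known for its part in the switch of CD45 isoforms in lymphocytes, gave 51.5 and 48.8 CPM untreated, 49.6 to 60.3 at 0.03 nM, 84.9 and 79.1 at 10 nM 1 h and 104 and 93.1 at 10 nM 2 h. All 4 libraries at 10 nM stood above the rest. It rose by 0.71 ± 0.099 (adjusted p = 0.000129) at 1 h and 0.98 ± 0.099 (adjusted p = 4.18e-06) at 2 h, with 0.34 and 0.42 by totals. Its nearest relative Hnrnpl, which binds the same CA-rich sequences, gave 207 and 204 CPM untreated, 195 to 213 at 0.03 nM, 199.9 and 191 at 10 nM 1 h and 199 and 186 at 10 nM 2 h and was not called with TMM. Counts of Hnrpll per count of Hnrnpl were 0.248 and 0.239 untreated, 0.232 to 0.309 at 0.03 nM, then 0.425 and 0.415 at 10 nM 1 h and 0.525 and 0.5004 at 10 nM 2 h, and all 4 values at 10 nM lay above the rest.

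Hnrnph1, Hnrnph2, Hnrnph3 and Hnrnpf encode close relatives that bind runs of G. Hnrnph2 (mm9 chrX:131135825-131141593, plus strand) measured 132 and 133 CPM untreated, 139 to 146 at 0.03 nM, 182 and 179 at 10 nM 1 h and 244 and 249.8 at 10 nM 2 h. Its 2 h pair was the highest and its 1 h pair next. The difference at 10 nM 1 h was 0.45 ± 0.067 (adjusted p = 0.000222) with TMM and 0.082 with totals, called with TMM alone. At 2 h it rose by 0.90 ± 0.068 (adjusted p = 2.88e-07), with 0.34 by totals. Hnrnph1 (mm9 chr11:50191221-50200030, plus strand) measured 219.5 and 210.5 CPM untreated, 204 to 219 at 0.03 nM, 329 and 316 at 10 nM 1 h and 313 and 310.1 at 10 nM 2 h. It was highest at 1 h: it rose there by 0.58 ± 0.068 (adjusted p = 2.71e-05), with 0.22 by totals, and at 2 h the difference was 0.53 ± 0.068 (adjusted p = 2.63e-05) with TMM and -0.021 with totals. The count ratio of Hnrnph2 to Hnrnph1 was 0.5996 and 0.631 untreated, 0.652 to 0.702 at 0.03 nM, 0.554 and 0.567 at 10 nM 1 h and 0.779 and 0.806 at 10 nM 2 h. Hnrnpf gave 438 and 427 CPM untreated, 425 to 449 at 0.03 nM, 546 and 552 at 10 nM 1 h and 627 and 635 at 10 nM 2 h, with 0.55 ± 0.065 (adjusted p = 1.55e-05) with TMM and -0.011 with totals. Hnrnph3 gave 21.1 and 20.6 CPM untreated, 18.8 to 21.8 at 0.03 nM, 27.8 and 28.05 at 10 nM 1 h and 32.7 and 32.3 at 10 nM 2 h, with 0.64 ± 0.082 (adjusted p = 3.09e-05) with TMM and 0.082 with totals. Most of the exonic length of Hnrnph3 overlaps Rufy2 on the opposite strand (1764 bases), so its counts are uncertain.

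Hnrnpa1 (mm9 chr15:103070863-103075386, plus strand), which silences exons and shuttles to the cytoplasm, gave 120.3 and 121 CPM untreated, 135 and 129 at 0.03 nM 1 h, 141 and 150.2 at 0.03 nM 2 h, 139 and 155 at 10 nM 1 h and 218 and 218 at 10 nM 2 h. The untreated pair was lowest and the 10 nM 2 h pair far above the rest. It rose by 0.85 ± 0.076 (adjusted p = 1.38e-06) at 10 nM 2 h, with 0.30 by totals. At 0.03 nM 2 h the TMM difference was 0.27 ± 0.076 (adjusted p = 0.0442), not called with totals (0.20), and that call was lost without either library of untreated cells, either library at 0.03 nM 1 h, the experiment 2 library at 0.03 nM 2 h, either library at 10 nM 1 h or either library at 10 nM 2 h (log2 0.24 to 0.28, adjusted p = 0.0624 to 0.239). Its exons overlap those of Gm10052 and Gm5643 on the same strand over 1388 and 1732 bases, so reads may be split with these copies. Hnrnpa2b1, the most counted member, gave 659.7 and 629 CPM untreated, 607 to 644 at 0.03 nM, 744 and 753 at 10 nM 1 h and 739.9 and 731 at 10 nM 2 h. Its difference at 10 nM 2 h changed sign with the scaling, 0.19 ± 0.066 (adjusted p = 0.0262) with TMM and -0.37 with totals, and the TMM call was lost without either library of untreated cells, either library at 10 nM 1 h or either library at 10 nM 2 h (log2 0.15 to 0.22, adjusted p = 0.0549 to 0.185). The ratio of Hnrnpa1 to Hnrnpa2b1 counts was 0.182 and 0.193 untreated, 0.212 to 0.233 at 0.03 nM, 0.188 and 0.205 at 10 nM 1 h and 0.295 and 0.298 at 10 nM 2 h. Hnrnpa3 gave 496 and 486 CPM untreated, 478 to 524 at 0.03 nM, 538 and 568 at 10 nM 1 h and 694 and 673 at 10 nM 2 h, with 0.48 ± 0.068 (adjusted p = 6.86e-05) with TMM and -0.079 with totals. It shares 1458 exonic bases with Gm6793.

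Of the other 16 hnRNP genes, 11 were called higher with TMM alone. Hnrnpk, which binds runs of C, gave 388 and 376 CPM untreated, 377 to 408 at 0.03 nM, 529 and 514 at 10 nM 1 h and 633 and 617 at 10 nM 2 h, with 0.71 ± 0.067 (adjusted p = 2.27e-06) with TMM and 0.15 with totals. Hnrnpc, which binds runs of U and masks cryptic exons, gave 147 and 144 CPM untreated, 137 to 152 at 0.03 nM, 189 and 194 at 10 nM 1 h and 228 and 219.8 at 10 nM 2 h, with 0.62 ± 0.069 (adjusted p = 8.73e-06) with TMM and 0.062 with totals. Hnrnpm gave 204 and 204 CPM untreated, 194 to 226 at 0.03 nM, 244 and 240.2 at 10 nM 1 h and 312 and 293 at 10 nM 2 h, with 0.57 ± 0.072 (adjusted p = 2.70e-05) with TMM and 0.014 with totals. In all of these the 2 h pair at 10 nM was the highest of the 5. Hnrnpd, known as AUF1 for its binding to unstable cytokine messages, gave 90.1 and 93.8 CPM untreated, 94.1 to 104 at 0.03 nM, 104 and 97.1 at 10 nM 1 h and 124 and 122 at 10 nM 2 h, with 0.41 ± 0.071 (adjusted p = 0.000326) with TMM and -0.14 with totals. The sign thus turned with the scaling for Hnrnpd. It turned as well for Hnrnpu (428 and 464 CPM untreated, 401 to 464 at 0.03 nM, 519.9 and 504 at 10 nM 1 h and 517 and 526 at 10 nM 2 h; 0.22 ± 0.074 (adjusted p = 0.0202) with TMM and -0.33 with totals) and Hnrnpul2 (245 and 255 CPM untreated, 238 to 245 at 0.03 nM, 268 and 262 at 10 nM 1 h and 301 and 307 at 10 nM 2 h; 0.28 ± 0.066 (adjusted p = 0.00297) with TMM and -0.27 with totals). The Hnrnpu call was lost without the experiment 1 library of untreated cells or either library at 10 nM 2 h (log2 0.17 to 0.24, adjusted p = 0.067 to 0.18). Hnrnpr, Hnrpdl, Hnrnpul1 and Hnrnpl were called in no comparison with TMM. With TMM, Hnrnpa0, a binder of AU-rich elements, was called only from 1 h to 2 h at 0.03 nM (0.33 ± 0.075 (adjusted p = 0.0266), or 0.27 with totals, not called). That call was lost without either library of untreated cells, either library at 0.03 nM 1 h or either library at 10 nM 1 h (log2 0.29 to 0.36, adjusted p = 0.0524 to 0.237). All 5 of these genes were called lower with totals at 10 nM 2 h.

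The 8 SF3 genes did not move as a block. Sf3b1 (mm9 chr1:55042013-55084322, minus strand), which touches the branch point, gave 339 and 345 CPM untreated, 317 to 377 at 0.03 nM, 543 and 522 at 10 nM 1 h and 529 and 538 at 10 nM 2 h. All 4 libraries at 10 nM lay above the rest and the 2 times overlapped. It rose at 10 nM 1 h by 0.64 ± 0.084 (adjusted p = 8.13e-05), with 0.27 by totals, and at 2 h the difference was 0.64 ± 0.084 (adjusted p = 3.65e-05) with TMM and 0.084 with totals. Sf3b3 (mm9 chr8:113334392-113370703, minus strand) gave 89.99 and 89.6 CPM untreated, 88.8 to 99.6 at 0.03 nM, 97.8 and 106 at 10 nM 1 h and 150.0 and 159.6 at 10 nM 2 h. It rose only at the later time under both scalings, by 0.79 ± 0.074 (adjusted p = 2.17e-06), with 0.23 by totals. Sf3a1 (mm9 chr11:4060357-4082544, plus strand) went the other way with 52.4 and 51.7 CPM untreated, 48.3 to 55.8 at 0.03 nM, 46.6 and 48.7 at 10 nM 1 h and 42.4 and 39.7 at 10 nM 2 h. Its 10 nM 2 h pair was the lowest of the 5, and it fell there, with a difference of -0.34 ± 0.083 (adjusted p = 0.00386), or -0.90 with totals. Its partners in SF3a gave other patterns. Sf3a3 measured 36.6 and 38.9 CPM untreated, 38.5 to 47.4 at 0.03 nM, 34.96 and 37.6 at 10 nM 1 h and 52.04 and 51.9 at 10 nM 2 h, with 0.46 ± 0.097 (adjusted p = 0.0014) with TMM and -0.096 with totals at 10 nM 2 h against untreated cells and a rise from 1 h to 2 h of 0.52 ± 0.097 (adjusted p = 0.00109), or 0.33 with totals. Sf3a2 measured 31.4 and 34.8 CPM untreated, 32.2 to 38.6 at 0.03 nM, 37.3 and 42.7 at 10 nM 1 h and 49.5 and 49.4 at 10 nM 2 h, with 0.58 ± 0.10 (adjusted p = 0.000452) with TMM and 0.022 with totals. The ratio of Sf3a3 to Sf3a1 counts was 0.699 and 0.753 untreated, 0.695 to 0.981 at 0.03 nM, 0.7500 and 0.772 at 10 nM 1 h and 1.23 and 1.31 at 10 nM 2 h. That of Sf3b1 to Sf3a1 was 6.48 and 6.68 untreated, 6.13 to 7.45 at 0.03 nM, 11.6 and 10.7 at 10 nM 1 h and 12.5 and 13.6 at 10 nM 2 h. Such a ratio shows unequal change and not which of the 2 changed. Sf3b4 differed at 10 nM 2 h by 0.33 ± 0.081 (adjusted p = 0.0037) with TMM and -0.22 with totals, a change of sign, and the TMM call was lost without the experiment 1 library of untreated cells (log2 0.25, adjusted p = 0.0612). Sf3b2 and Sf3b5 were called in no comparison with TMM, and both were called lower with totals at 10 nM 2 h.

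**Figure D3:**
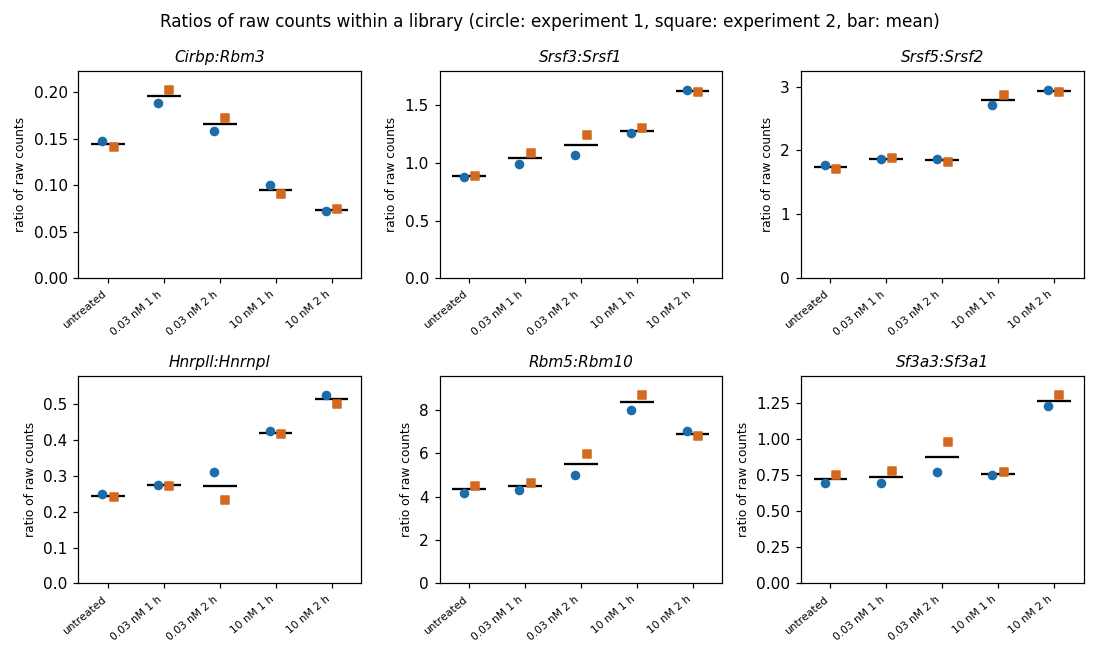
Ratio of the raw counts of 2 members within each library (y axis, from 0) for 6 pairs, by group (x axis); circles are experiment 1, squares experiment 2 and bars the mean of the 2. Such a ratio does not depend on scaling: Srsf3 per Srsf1 climbs from 0.878 and 0.887 to 1.63 and 1.61, and Cirbp per Rbm3 goes up at 0.03 nM and down at 10 nM.

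RBM genes held the widest changes of the set. Of 32 tested, 15 were called higher and 4 lower with TMM at 10 nM 2 h, where 28.6% and 30.1% of all genes were. With totals 4 were called higher and 17 lower, against 14.7% and 61.1% of all genes. Under both scalings 4 RBM genes rose and 4 fell, where 14.7% and 30.1% of all genes did. The RBM genes that rose under both were Rbm12, Rbm7, Rbm43 and Rbm47, and those that fell were Rbm18, Rbm33, Rbm10 and Rbm38.

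Rbm7 (mm9 chr9:48296802-48303435, minus strand) is a subunit of the nuclear exosome targeting complex, which hands short-lived nuclear RNAs to the exosome. It measured 73.1 and 73.6 CPM untreated, 76.4 to 89.4 at 0.03 nM, 160.0 and 154 at 10 nM 1 h and 200.2 and 203 at 10 nM 2 h. All 4 libraries at 10 nM were far above the rest, and the 2 h pair was above the 1 h pair. It rose 2.14-fold at 1 h, 1.10 ± 0.077 (adjusted p = 3.43e-07), and 2.75-fold at 2 h, 1.46 ± 0.077 (adjusted p = 1.34e-08). With totals these were 0.73 and 0.90, both called. Rbm12 (mm9 chr2:155920618-155937701, minus strand) showed the largest rise among members at 10 nM 2 h under both scalings. It measured 25.7 and 27.7 CPM untreated, 31.5 and 30.4 at 0.03 nM 1 h, 43.03 and 36.3 at 0.03 nM 2 h, 46.4 and 49.9 at 10 nM 1 h and 85.99 and 80.8 at 10 nM 2 h. Its pairs followed one another in that order without overlap. The differences were 0.57 ± 0.096 (adjusted p = 0.00228) at 0.03 nM 2 h, 0.85 ± 0.096 (adjusted p = 2.16e-05) at 10 nM 1 h and 1.64 ± 0.097 (adjusted p = 3.35e-08) at 10 nM 2 h, the last 3.12-fold. With totals they were 0.50, 0.48 and 1.09, all called. Rbm12 shares 229 exonic bases with Cpne1 on the same strand.

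Bases before the starts of Rbm7 and Rbm12, clear of annotated exons, are shown because each carries TGACGTC, 7 of the 8 letters of the palindrome TGACGTCA known as the cyclic AMP response element, in capitals. The Rbm7 stretch is chr9:48495331-48495441, minus strand, and the Rbm12 stretch is chr2:156111979-156112215, minus strand, both RefSeq, GRCm38.p6.
Rbm7: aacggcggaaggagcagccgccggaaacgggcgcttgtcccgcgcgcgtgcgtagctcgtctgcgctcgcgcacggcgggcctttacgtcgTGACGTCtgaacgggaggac
Rbm12: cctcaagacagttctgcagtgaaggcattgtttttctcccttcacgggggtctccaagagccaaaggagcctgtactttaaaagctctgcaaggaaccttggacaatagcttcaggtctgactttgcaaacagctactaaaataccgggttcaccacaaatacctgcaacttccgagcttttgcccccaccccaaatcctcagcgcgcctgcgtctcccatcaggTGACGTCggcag
The shorter motif was searched after these promoters had been read. It lay on either strand within 250 bases before the start in 5 of 61 tested members with a promoter in the table (8.20%): Rbm7, Rbm12, Srsf6, Hnrnpm and Rbm28. Among all genes there, 3.16% held it. Of the 11 members with a promoter that rose under both scalings at 10 nM 2 h, 3 held it, and of the 6 that fell, 0. Rbm7 and Rbm12, whose promoters had been read first, are counted in the 3 and in the 5, so neither count tests the motif. The whole palindrome TGACGTCA, which contains the shorter motif, lay in 0 of 61, against 1.77% of all genes. These are counts of letters, and neither motif is a measured site.

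Rbm43 (mm9 chr2:51779969-51790529, minus strand) turned between the times. It measured 21.3 and 23.1 CPM untreated, 21.9 and 26.5 at 0.03 nM 1 h, 22.9 and 26.8 at 0.03 nM 2 h, 15.8 and 17.05 at 10 nM 1 h and 48.8 and 51.98 at 10 nM 2 h. At 10 nM 1 h both libraries were below all others, and at 2 h both were above all others. It was 1.35-fold lower at 1 h, -0.44 ± 0.12 (adjusted p = 0.0112), and 2.27-fold higher at 2 h, 1.18 ± 0.11 (adjusted p = 2.65e-06). With totals these were -0.80 and 0.62, both called. The fall at 1 h was lost without the experiment 2 library of untreated cells or the experiment 1 library at 10 nM 1 h (log2 -0.38, adjusted p = 0.0862 to 0.0943). From 1 h to 2 h at 10 nM it rose 3.07-fold, 1.62 ± 0.12 (adjusted p = 7.97e-07). Its promoter is shown for the element made of GAAA, any 2 bases and GAAA again, the core that interferon regulatory factors and interferon-stimulated gene factors are known to bind, printed in capitals on the opposite strand (chr2:51935164-51935413, minus strand, RefSeq, GRCm38.p6).
Rbm43: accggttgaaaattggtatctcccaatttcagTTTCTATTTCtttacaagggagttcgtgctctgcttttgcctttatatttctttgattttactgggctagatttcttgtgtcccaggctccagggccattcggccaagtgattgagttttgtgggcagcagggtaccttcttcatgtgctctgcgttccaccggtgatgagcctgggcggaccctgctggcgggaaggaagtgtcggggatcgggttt
This element lay on either strand within 250 bases before the start of 3 of 61 members (4.92%), Rbm43, Rbm28 and Rbm41, and of 3.46% of all genes. Rbm28 and Rbm41 were called in no comparison with TMM.

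Rbm5, Rbm6 and Rbm10 encode relatives that regulate exon choice, and Rbm5 and Rbm6 are neighbours on chromosome 9. Rbm5 (mm9 chr9:107642826-107673333, minus strand) gave 99.1 and 101 CPM untreated, 97.8 and 103 at 0.03 nM 1 h, 116 and 122 at 0.03 nM 2 h, 172 and 169 at 10 nM 1 h and 110.2 and 110.2 at 10 nM 2 h. The 10 nM 1 h pair stood far above the rest, and the 2 h pair lay between the low-dose groups. It rose 1.704-fold at 10 nM 1 h, 0.77 ± 0.069 (adjusted p = 3.11e-06), with 0.40 by totals; at 2 h the values were 0.14 ± 0.069 with TMM, not called, and -0.41 with totals, called lower. At 0.03 nM 2 h the TMM difference was 0.25 ± 0.069 (adjusted p = 0.0396), not called with totals (0.18), and that call was lost without either library of untreated cells, either library at 0.03 nM 1 h, either library at 10 nM 1 h or either library at 10 nM 2 h (log2 0.24 to 0.26, adjusted p = 0.0642 to 0.245). Rbm10 (mm9 chrX:20194629-20228031, plus strand) gave 23.8 and 22.3 CPM untreated, 20.3 to 23.2 at 0.03 nM, 21.5 and 19.4 at 10 nM 1 h and 15.7 and 16.2 at 10 nM 2 h. Its 10 nM 2 h pair was the lowest, and it fell there 1.44-fold, -0.53 ± 0.10 (adjusted p = 0.000714), with -1.09 by totals. Rbm6 fell from 1 h to 2 h at 10 nM, -0.31 ± 0.087 (adjusted p = 0.0129), with -0.50 by totals, and that call was lost without the experiment 1 library at 10 nM 1 h or the experiment 1 library at 10 nM 2 h (log2 -0.22 to -0.28, adjusted p = 0.0952 to 0.136). The ratio of Rbm5 to Rbm10 counts was 4.16 and 4.51 untreated, 4.296 to 5.99 at 0.03 nM, 8.01 and 8.700 at 10 nM 1 h and 7.02 and 6.79 at 10 nM 2 h.

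Rbm38 (mm9 chr2:172847403-172860232, plus strand), a target of p53 that binds messages of the cell cycle, gave 14.03 and 11.3 CPM untreated, 10.3 to 12.2 at 0.03 nM, 17.4 and 16.5 at 10 nM 1 h and 8.86 and 7.49 at 10 nM 2 h. Both 10 nM 1 h libraries were the highest and both 2 h libraries the lowest. At 1 h its difference was 0.42 ± 0.13 (adjusted p = 0.0226) with TMM and 0.057 with totals, called with TMM alone. At 2 h it fell 1.55-fold, -0.63 ± 0.14 (adjusted p = 0.00175), with -1.18 by totals. Rbm33 (mm9 chr5:28643729-28745782, plus strand) gave 75.1 and 76.2 CPM untreated, 52.5 to 73.02 at 0.03 nM, 84.7 and 71.2 at 10 nM 1 h and 45.7 and 43.4 at 10 nM 2 h. Its 10 nM 2 h pair was below every other library; it fell 1.698-fold, -0.76 ± 0.11 (adjusted p = 9.83e-05), with -1.32 by totals. Rbm18 (mm9 chr2:35971599-35992224, minus strand) gave 24.3 and 21.1 CPM untreated, 20.1 to 22.2 at 0.03 nM, 17.9 and 17.00 at 10 nM 1 h and 13.95 and 13.2 at 10 nM 2 h. It stepped down at both times, 1.301-fold at 1 h, -0.38 ± 0.10 (adjusted p = 0.0113), and 1.67-fold at 2 h, -0.74 ± 0.10 (adjusted p = 6.54e-05). With totals these were -0.75 and -1.29. The 1 h call of Rbm18 was lost without the experiment 1 library of untreated cells or the experiment 2 library at 10 nM 1 h (log2 -0.27 to -0.34, adjusted p = 0.0893 to 0.135), and 218 of its exonic bases overlap Mrrf on the opposite strand.

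**Figure D4:**
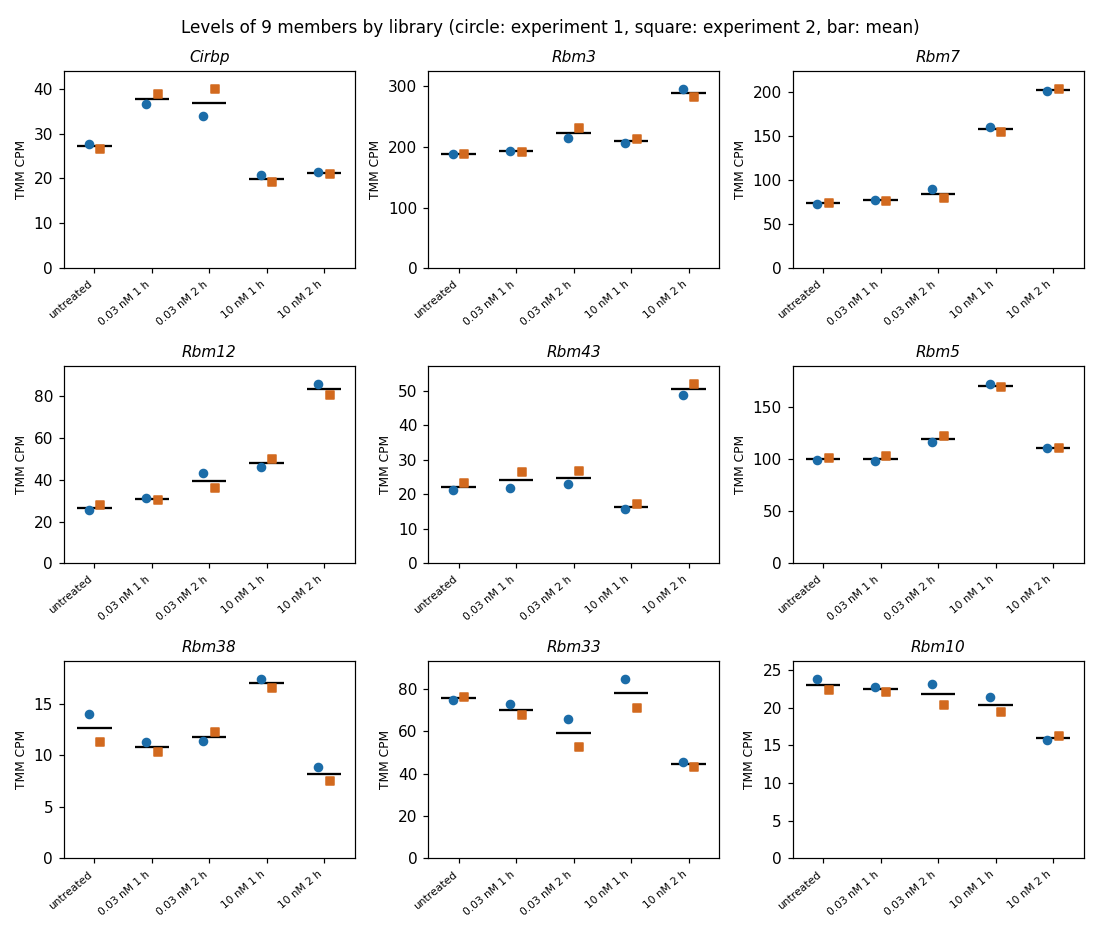
TMM-scaled level (CPM, y axis, from 0) of Cirbp, Rbm3 and 7 other RBM genes in each library by group (x axis); circles are experiment 1, squares experiment 2 and bars the mean of the 2. Rbm43 is lowest at 10 nM 1 h and highest at 2 h, Rbm38 shows the reverse, Rbm5 peaks at 10 nM 1 h, and Cirbp is above untreated at 0.03 nM and below it at 10 nM; the calls against untreated cells differ with library totals for Rbm3, Rbm10, Rbm33 and Rbm38 at 10 nM 1 h and for Rbm3 and Rbm5 at 10 nM 2 h.

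Rbm47 (mm9 chr5:66407796-66543163, minus strand), a partner of the APOBEC1 RNA editing enzyme, gave 95.9 and 98.5 CPM untreated, 90.3 to 113 at 0.03 nM, 141 and 138 at 10 nM 1 h and 167 and 175 at 10 nM 2 h. All 4 libraries at 10 nM were above the rest, and it rose by 0.81 ± 0.097 (adjusted p = 1.60e-05) at 2 h, with 0.26 by totals. Several RBM genes of the spliceosome itself were higher with TMM only. Rbm22, part of the active centre of the spliceosome, gave 36.4 and 37.03 CPM untreated, 36.7 to 41.3 at 0.03 nM, 42.4 and 43.9 at 10 nM 1 h and 61.1 and 59.3 at 10 nM 2 h, with 0.71 ± 0.082 (adjusted p = 1.19e-05) with TMM and 0.16 with totals. Rbm17, a partner of SF3b1 known as SPF45, gave 54.4 and 48.8 CPM untreated, 50.1 to 61.2 at 0.03 nM, 56.4 and 60.5 at 10 nM 1 h and 87.3 and 81.1 at 10 nM 2 h, with 0.71 ± 0.093 (adjusted p = 3.83e-05) with TMM and 0.15 with totals. Both rose from 1 h to 2 h at 10 nM under both scalings, Rbm22 by 0.48 ± 0.082 (adjusted p = 0.000552) and Rbm17 by 0.53 ± 0.093 (adjusted p = 0.00074). Rbm25 gave 138 and 137 CPM untreated, 117 to 146 at 0.03 nM, 179.6 and 184 at 10 nM 1 h and 198 and 211 at 10 nM 2 h, with 0.57 ± 0.095 (adjusted p = 0.000249) with TMM and 0.016 with totals. Rbm39, a relative of U2AF, gave 245 and 245 CPM untreated, 232 to 275 at 0.03 nM, 357 and 335 at 10 nM 1 h and 306 and 306 at 10 nM 2 h. It was highest at 10 nM 1 h, and at 2 h its sign turned with the scaling, 0.32 ± 0.080 (adjusted p = 0.00427) with TMM and -0.23 with totals.

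The remaining RBM genes were called in no comparison in the same direction under both scalings. Rbm27 gave 40.6 and 38.4 CPM untreated, 37.3 to 46.8 at 0.03 nM, 46.5 and 51.6 at 10 nM 1 h and 57.3 and 63.3 at 10 nM 2 h, with 0.61 ± 0.11 (adjusted p = 0.000395) with TMM and 0.054 with totals at 10 nM 2 h. Rbm4 gave 13.1 and 11.5 CPM untreated, 10.1 to 12.96 at 0.03 nM, 13.1 and 11.4 at 10 nM 1 h and 19.2 and 14.8 at 10 nM 2 h, with 0.47 ± 0.15 (adjusted p = 0.017) with TMM and -0.088 with totals, and that TMM call was lost without the experiment 2 library of untreated cells or the experiment 1 library at 10 nM 2 h (log2 0.27 to 0.37, adjusted p = 0.124 to 0.202). Rbm4 and Rbm4b are near-identical genes, so their counts are uncertain. Rbm14, a paraspeckle protein, gave 29.8 and 27.99 CPM untreated, 25.3 to 27.9 at 0.03 nM, 26.4 and 25.96 at 10 nM 1 h and 34.4 and 33.1 at 10 nM 2 h, with 0.23 ± 0.083 (adjusted p = 0.0339) with TMM and -0.33 with totals. That TMM call was lost without either library of untreated cells, either library at 0.03 nM 1 h, either library at 10 nM 1 h or either library at 10 nM 2 h (log2 0.18 to 0.27, adjusted p = 0.0517 to 0.201). Rbm8a, a core protein of the exon junction, differed by 0.38 ± 0.077 (adjusted p = 0.00105) with TMM and -0.18 with totals, Rbm34 by 0.39 ± 0.11 (adjusted p = 0.00674) with TMM and -0.16 with totals and Rbm42 by 0.39 ± 0.11 (adjusted p = 0.00972) with TMM and -0.17 with totals, all called with TMM and of the other sign with totals. The Rbm34 call was lost without the experiment 1 library of untreated cells (log2 0.33, adjusted p = 0.0665), and the Rbm42 call was lost without the experiment 1 library of untreated cells or the experiment 1 library at 10 nM 2 h (log2 0.30 to 0.34, adjusted p = 0.0751 to 0.094). At 0.03 nM 2 h the TMM difference of Rbm34 was 0.38 ± 0.10 (adjusted p = 0.0413), not called with totals (0.31), and that call was lost without either library of untreated cells, either library at 0.03 nM 1 h, the experiment 2 library at 0.03 nM 2 h, either library at 10 nM 1 h or either library at 10 nM 2 h (log2 0.31 to 0.44, adjusted p = 0.0501 to 0.287). Rbm15 was called at 10 nM 1 h with TMM only, 0.43 ± 0.16 (adjusted p = 0.0487) with TMM and 0.063 with totals. The other 10 tested RBM genes (Rbm4b, Rbm11, Rbm12b, Rbm15b, Rbm19, Rbm26, Rbm28, Rbm41, Rbm44 and Rbm45) were called in no comparison with TMM. At 10 nM 2 h, 11 of the 13 RBM genes not called with TMM were called lower with totals.

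Comparing the doses at the same time leaves the untreated cells out of the difference. They remain in the shared fit, through scaling and the estimate of spread. At 1 h, 26 members were called higher and 2 lower at 10 nM than at 0.03 nM with TMM, where 35.3% of all genes were called; with totals the counts were 6 and 30. Over the whole table, 18.0% were called higher and 17.3% lower with TMM, 9.33% and 51.0% with totals, and 9.32% and 17.3% under both. Called under both scalings were Rbm7 (1.03), Rbm5 (0.76), Hnrnph1 (0.65), Rbm12 (0.64), Hnrnpab (0.63) and Sf3b1 (0.61) upward, and Cirbp (-0.92) and Rbm43 (-0.56) downward, as TMM log2 differences. At 2 h the counts were 38 higher and 7 lower with TMM, where 52.8% of all genes were called, and 9 and 33 with totals. Of all genes, 25.6% were called higher and 27.2% lower with TMM, 13.4% and 59.1% with totals, and 13.4% and 27.2% under both. Under both scalings Rbm7 (1.26), Rbm12 (1.07), Rbm43 (1.02), Hnrpll (0.85), Hnrnph2 (0.79), Hnrnpab (0.75), Rbm47 (0.75), Srsf5 (0.69) and Sf3b3 (0.67) were higher. Cirbp (-0.80), Rbm18 (-0.65), Rbm38 (-0.53), Rbm10 (-0.44), Rbm33 (-0.41), Srsf9 (-0.34) and Sf3a1 (-0.27) were lower. The Rbm33 call was lost without the experiment 1 library at 0.03 nM 2 h or the experiment 2 library at 10 nM 2 h (log2 -0.24 to -0.37, adjusted p = 0.0538 to 0.0675), the Rbm38 call was lost without the experiment 2 library at 10 nM 2 h (log2 -0.41, adjusted p = 0.0653) and the Sf3a1 call was lost without the experiment 2 library at 10 nM 2 h (log2 -0.22, adjusted p = 0.124).

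From 1 h to 2 h at 0.03 nM, 2 of 71 members were called, both higher with TMM and neither with totals, where 5.11% of all genes were called. Among all genes tested, 3.51% were called higher and 1.59% lower with TMM, 2.76% and 2.35% with totals, and 2.76% and 1.59% under both. They were Hnrnpab and Hnrnpa0, described above, and 13 members had an unadjusted p below 0.05. DESeq2 called 5. The count was 15 and 2 without the experiment 1 and 2 libraries at 0.03 nM 2 h, 1 without either 10 nM 2 h library and 0 without any other library. At 10 nM the same step had 33 members higher and 6 lower with TMM, where 42.8% of all genes were called, and 11 higher and 16 lower with totals. Over the whole table, 21.3% were called higher and 21.5% lower with TMM, 13.6% and 33.1% with totals, and 13.6% and 21.5% under both. The 11 that rose under both scalings were Rbm43, Rbm12, Sf3b3, Hnrnpa1, Rbm17, Sf3a3, Rbm22, Srsf10, Rbm3, Hnrnph2 and Hnrnpab, with TMM differences from 0.39 (Hnrnpab) to 1.62 (Rbm43). The 6 that fell were Rbm38 (-1.05), Rbm33 (-0.81), Rbm5 (-0.63), Rbm18 (-0.36), Rbm10 (-0.35) and Rbm6 (-0.31). All 6 are RBM genes. The number of members called was 21 without the experiment 1 library at 10 nM 2 h, and 24 and 25 without the experiment 1 and 2 libraries at 10 nM 1 h. The Rbm18 call was lost without the experiment 1 library at 10 nM 1 h or the experiment 2 library at 10 nM 2 h (log2 -0.32 to -0.33, adjusted p = 0.0929 to 0.0953), and the Rbm10 call was lost without the experiment 1 library at 10 nM 1 h or the experiment 1 library at 10 nM 2 h (log2 -0.28 to -0.33, adjusted p = 0.0824 to 0.121).

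The effect of dose differed between 1 h and 2 h for 11 of 71 members by the interaction term of the same fit, 8 upward and 3 downward with TMM, where 22.0% of all genes were called. With totals 3 were called upward and 8 downward. Of all genes, 10.4% were called higher and 11.6% lower with TMM, 7.94% and 17.8% with totals, and 7.94% and 11.6% under both. Under both scalings Rbm43 (1.58 ± 0.16 (adjusted p = 4.68e-05)), Sf3b3 (0.49 ± 0.10 (adjusted p = 0.00537)) and Hnrnph2 (0.46 ± 0.095 (adjusted p = 0.00458)) had a larger difference between doses at 2 h. Rbm38 (-1.18 ± 0.19 (adjusted p = 0.000903)), Rbm5 (-0.87 ± 0.097 (adjusted p = 7.88e-05)) and Rbm33 (-0.56 ± 0.16 (adjusted p = 0.0257)) had one that was lower at 2 h. The Rbm33 call was lost without the experiment 2 library at 0.03 nM 1 h, the experiment 1 library at 10 nM 1 h or either library at 10 nM 2 h (log2 -0.43 to -0.60, adjusted p = 0.0571 to 0.132). The number called was 19 without the experiment 1 library at 0.03 nM 2 h, 6 without the experiment 2 library at 0.03 nM 1 h and 5 without the experiment 1 library at 10 nM 1 h. It was 5 and 7 without the experiment 1 and 2 libraries at 10 nM 2 h.

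Other genes of splicing were counted from 4 lists, all at 10 nM 2 h, where 58.7% of all genes were called. The lists were written with earlier results of these data known. Of 13 kinases and phosphatases that act on SR proteins, 4 were called higher and 4 lower with TMM, and 0 and 9 with totals. The lower 4 (Clk1, Clk2, Clk4 and Srpk2, kinases that phosphorylate SR proteins) fell under both scalings, with Clk1 at -0.99 ± 0.11 (adjusted p = 6.65e-06) and Clk4 at -0.81 ± 0.092 (adjusted p = 1.16e-05) leading. Of 41 other splicing regulators, 24 were called higher and 6 lower, and 13 and 6 under both scalings. With totals 13 were called higher and 18 lower. Those with the smallest adjusted p were Tra2a at 1.58 ± 0.084, Tra2b at 1.34 ± 0.074 (both SR-like activators), Sfpq at 1.35 ± 0.076 and Pspc1 at 1.60 ± 0.10 (both paraspeckle proteins), all up under both scalings with adjusted p of 1.39e-08 to 6.14e-08.

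Of 42 proteins of the U1, U2 and U4/U6.U5 particles, 19 were called higher and 3 lower, but 4 and 3 under both scalings, and with totals 28 were called lower. Sf1, the first binder of the branch point, rose by 1.12 ± 0.071 and Prpf38a by 1.81 ± 0.12, both under both scalings. Of 15 genes of nonsense-mediated decay and the exon junction (Rbm8a, a member, aside), 7 were called higher and 3 lower, 3 and 3 under both, and 3 and 8 with totals. Magohb rose by 2.59 ± 0.23, while Upf3b fell, with a difference of -0.85 ± 0.10. At 0.03 nM 2 h, 3 of the other regulators, 2 particle proteins and 1 gene of decay and the exon junction were called, all higher with TMM, where 9.82% of all genes were called. Under both scalings these were 2, 0 and 1, and with totals 2 of the other regulators were called lower.

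Across the 71 members the TMM difference at 10 nM 2 h ran with the mean level at Spearman rho = 0.32, against 0.28 across all genes tested. That level is the mean over all 10 libraries, including those that make the difference, so the measures are not independent. With exonic length rho was -0.095 against -0.035, and with the number of exon blocks -0.067 against 0.037. Members share libraries, so these are descriptions without a test. Median exonic length was 2793 bases for the 12 members that rose under both scalings, 3133 for the 6 that fell and 2844 for the other 53. Over all 10 libraries, the 12 that rose had a median level of 138 CPM and the 6 that fell 24.7 CPM. These levels include the 10 nM 2 h libraries in which rise and fall were called. Of other promoter motifs searched on both strands, CCGGAAG, the core bound by ETS factors, lay in 16 of 61 members (26.2%) and in 7.83% of all genes. It lay in 3 of the 11 members with a promoter that rose under both scalings and in 1 of the 6 that fell. All genes here are those with a promoter, tested or not, whereas the members were tested and of higher level. The share among tested genes alone was not counted, for this motif or those below. The E-box CACGTG lay in 6 of 61 (9.84%, against 6.86%), TATAAA in 8 (13.1%, against 14.3%) and the NF-kB consensus in 4 (6.56%, against 8.23%). Of the 4 members with that consensus, Rbm12 alone rose under both scalings at 10 nM 2 h.

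Whether reads were counted by strand is not given in the sources used here. Opposite-strand overlaps therefore also leave the counts of Hnrnpab (54 bases with Agxt2l2), Hnrnpk (124 with Rmi1), Rbm10 (62 with Ndufb11) and Rbm19 (338 with Gm10390) uncertain to that extent. On the same strand, Rbm26 shares 158 exonic bases with Gm17066.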

How the data were processed

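RNA-seq of polyadenylated RNA was analysed in 10 libraries, 5 groups of 2. Gene counts are the authors' deposited whole numbers; the mm9 build, featureCounts 1.4.5-p1, TopHat2 2.0.11 and bcl2fastq 2.15.0.4 are listed in the submitters' processing notes, and the strand setting is not given in the sources used here. A second deposited table holds log2-scale values after the authors' regularized logarithm, used in 1 alternative only.

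The 76 members, the gene lists and the tests were chosen with earlier results of these data known. Counts were fitted in edgeR 4.0.16 (R 4.3.3, limma 3.58.1) by the robust quasi-likelihood test on all 5 groups, after TMM scaling and filterByExpr, which kept 12918 genes. P-values were adjusted over all of these by Benjamini-Hochberg, and 0.05 was the threshold. The script was tested on simulated data. Any member could be named. Values in every library were given for up to 8 members a direction by smallest adjusted p at 10 nM 2 h, members called in 3 or more of 9 contrasts, Cirbp, Rbm3 and Srsf1 to Srsf3, and the extremes of level; at most 4 other splicing genes a list were named. For members not called at 0.03 nM the 4 low-dose libraries are given as a range.

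An experiment number in the labels is shared across groups. The main fit did not use it, so the printed errors and p-values are unpaired. It entered only as a block in an alternative fit. Deviations of same-numbered libraries from their group means correlated at 0.040 to 0.24 (median 0.18), above 0.1 in 7 of 10 pairs of groups. Alternatives were library totals, relative log expression scaling, a filter of 1 CPM or none, DESeq2 1.42.0, limma on the regularized log2 values, the experiment as a block, only the groups compared, and leaving out each library. Marker lists other than those in the report summed to 19.5 to 39.0 CPM (neutrophil), 34.1 to 53.5 (dendritic), 5.18 to 10.0 (B cell), 31.9 to 39.2 (T and NK cell) and 2.42 to 4.65 (mast cell, with Mcpt4 and Tpsb2 at 0). Of the T and NK cell markers, Cd4 alone ran from 31.8 to 38.8 CPM over the libraries, and each other marker reached at most 0.423 CPM. Figures were drawn with Python 3.11.15 and matplotlib 3.10.9.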

Additional observations from a re-analysis of the deposited data

Results flagged for a closer look

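For 11 members the difference between 10 nM and 0.03 nM at 2 h was not the same as at 1 h, by the interaction term of edgeR's quasi-likelihood test with Benjamini-Hochberg adjustment. The log2 difference of the 2 dose effects was 1.58 for Rbm43, 0.49 for Sf3b3 and 0.46 for Hnrnph2. It was -1.18 for Rbm38, -0.87 for Rbm5 and -0.56 for Rbm33. These 6 were called with library totals as well.

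Called with TMM alone were Srsf10 (0.47, or 0.34 with totals), Rbm22 (0.45 and 0.32), Rbm14 (0.44 and 0.31), Rbm12 (0.44 and 0.31) and Hnrnpa1 (0.43 and 0.30). These 5 calls rest on single libraries. The Srsf10 call was lost without either library of untreated cells, either library at 0.03 nM 1 h, either library at 10 nM 1 h or either library at 10 nM 2 h (log2 0.43 to 0.51, adjusted p = 0.066 to 0.139). That of Rbm12 was lost without either library of untreated cells, either library at 0.03 nM 1 h, the experiment 2 library at 0.03 nM 2 h, either library at 10 nM 1 h or either library at 10 nM 2 h (log2 0.29 to 0.49, adjusted p = 0.0542 to 0.153). For Rbm22 the call was lost without the experiment 2 library at 0.03 nM 1 h, the experiment 1 library at 10 nM 1 h or the experiment 1 library at 10 nM 2 h (log2 0.35 to 0.42, adjusted p = 0.062 to 0.0865), for Rbm14 it was lost without the experiment 2 library at 0.03 nM 1 h, either library at 10 nM 1 h or the experiment 1 library at 10 nM 2 h (log2 0.41 to 0.44, adjusted p = 0.0668 to 0.0784) and for Hnrnpa1 it was lost without the experiment 1 library at 0.03 nM 1 h, the experiment 1 library at 10 nM 1 h or either library at 10 nM 2 h (log2 0.35 to 0.43, adjusted p = 0.0501 to 0.0859).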

How the results depend on the processing

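With 2 libraries a group, the low-dose counts of called members were the least stable. Leaving out 1 library gave 0 to 1 called members at 0.03 nM 1 h, 1 to 18 at 0.03 nM 2 h, 22 to 42 at 10 nM 1 h and 39 to 52 at 10 nM 2 h against untreated cells. Between doses it gave 24 to 38 at 1 h and 37 to 46 at 2 h; from 1 h to 2 h it gave 0 to 15 at 0.03 nM and 21 to 48 at 10 nM, and for the interaction 5 to 19. With only the groups compared, 1 was called at 0.03 nM 2 h and 0 from 1 h to 2 h at 0.03 nM, where DESeq2 called 5 and library totals 0. With library totals most calls pointed down, 40 at 10 nM 1 h (7 up, 33 down), 46 at 10 nM 2 h (12 and 34), 36 between doses at 1 h (6 and 30), 42 at 2 h (9 and 33), 27 from 1 h to 2 h at 10 nM (11 and 16) and 11 for the interaction (3 and 8). The fit with the experiment as a replicate block, for the pairing, called 7 at 0.03 nM 2 h (6 up, 1 down) and 29 between doses at 1 h (26 up, 3 down), against 6 and 28 without it; the other 7 counts and the calls of the 120 values below were the same.

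Of 120 values of named members, totals left 80 on the same side, ended the call of 23 and turned the sign of 17, all at 10 nM 2 h: Hnrnpu -0.33, Hnrnph1 -0.021, Rbm4 -0.088, Rbm14 -0.33, Hnrnpul2 -0.27, Hnrnpa3 -0.079, Rbm39 -0.23, Sf3b4 -0.22, Rbm8a -0.18, Srsf11 -0.31, Sf3a3 -0.096, Srsf10 -0.22, Hnrnpd -0.14, Hnrnpa2b1 -0.37, Hnrnpf -0.011, Rbm42 -0.17 and Rbm34 -0.16. These 120 values do not hold every call, and signs turned outside 10 nM 2 h too. Among all members called higher with TMM, 7 had a negative value with totals at 10 nM 1 h and 7 between doses at 1 h. Between doses at 2 h, 10 had a negative value without a call and 5 were called lower. Without a filter 6 of the 120 values lost their call, with only the groups compared 10, and with DESeq2 1 (Sf3a1 between doses at 2 h, adjusted p = 0.0524). In 33 the call was lost without at least 1 library and in 0 the sign turned. The cause of these changes was not tested.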
